A study of Mus musculus with 9 samples.

Results

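The genes described here are 8 that move or convert glutamate and cystine in mouse cells, namely Slc1a1, Slc1a2, Slc1a3, Slc7a11, Glul, Glud1, Got1 and Got2. They were chosen by gene symbol from a table of 54134 entries of raw counts, and all 8 were found, each as a single entry. Of the 8, 6 had enough reads to be tested, and Slc1a1 and Slc1a2 did not. RNA was sequenced from cells labelled HT22, a mouse hippocampal neuronal line whose cell type is written HT-4 in the labels, with genotype WT. Control cells were left untreated, Hb cells received oxyhemoglobin, and Hb+NTR1 cells received oxyhemoglobin and NTR1, written NGR1 in the title of the series. All groups grew in the same serum-containing medium, each had 3 libraries, and no group received NTR1 alone. Dose and duration were not stated. Whether libraries of 1 group are separate cultures is also not stated, so each p-value reflects the spread among these samples alone, and that spread may be technical.

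HT22 cells are widely used to study death caused by glutamate. Glutamate outside the cell blocks a membrane exchanger that takes in cystine and lets out glutamate, and without cystine the cell cannot keep up its glutathione. Slc7a11 encodes the transport chain of that exchanger and Slc3a2 the heavy chain that holds it in the membrane. Slc1a1, Slc1a2 and Slc1a3 encode the sodium-driven transporters that take glutamate up, of which Slc1a2 and Slc1a3 are the main ones of astrocytes in the brain. Glul joins glutamate and ammonia into glutamine, Glud1 turns glutamate into alpha-ketoglutarate in mitochondria, and Got1 and Got2 exchange amino groups between glutamate and aspartate in the cytosol and in mitochondria.

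The 250 bases before the RefSeq start are shown next for Slc1a3, the gene with the largest change, and for Slc7a11 and Got1, chosen because they hold the motif described here, on the gene's own strand from 5′ to 3′ (build GRCm38.p6). Capitals mark each match, on either strand, to TGATGNAA, the core of the amino acid response element, the kind of site that the stress factor ATF4 binds with a partner. The windows are chr15:8710808-8711057 for Slc1a3, chr3:50443614-50443863 for Slc7a11 and chr19:43524606-43524855 for Got1, all on the minus strand. The RefSeq start of Slc1a3 lies upstream of the GENCODE gene boundary given with its values.
Slc1a3: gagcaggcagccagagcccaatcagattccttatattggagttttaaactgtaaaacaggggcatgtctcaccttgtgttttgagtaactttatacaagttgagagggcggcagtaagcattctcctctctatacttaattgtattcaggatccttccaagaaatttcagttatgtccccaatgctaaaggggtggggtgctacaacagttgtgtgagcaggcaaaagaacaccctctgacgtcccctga
Slc7a11: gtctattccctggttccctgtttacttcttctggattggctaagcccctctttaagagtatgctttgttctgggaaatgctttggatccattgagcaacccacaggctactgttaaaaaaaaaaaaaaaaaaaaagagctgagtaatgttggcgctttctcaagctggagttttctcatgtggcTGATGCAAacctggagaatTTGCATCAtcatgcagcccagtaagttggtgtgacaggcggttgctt
Got1: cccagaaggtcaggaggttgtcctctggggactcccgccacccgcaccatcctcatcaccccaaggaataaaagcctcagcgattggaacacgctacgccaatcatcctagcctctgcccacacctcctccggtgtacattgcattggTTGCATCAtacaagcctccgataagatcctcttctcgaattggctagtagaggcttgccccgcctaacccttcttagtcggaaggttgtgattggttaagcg
Slc7a11 held 2 matches in opposite orientation, at 66 to 59 and 47 to 40 bases before the start. Got1 held 1 match, on the opposite strand at 102 to 95 bases before the start. Slc1a3 and the other 5 genes held none, and 3.45% of the 32851 promoters in the RefSeq table held at least 1 in the same window. The window used for Slc1a2 lies inside its GENCODE gene, downstream of the 5′ boundary given with its values. The core of the antioxidant response element, TGACNNNGC, was in none of the 8 windows and in 10.2% of all promoters. These matches are letters in a window, and binding was not measured.

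Total counts per library were between 14369813 and 16893746 for control, 13415648 and 14728662 for Hb, and 13945507 and 14280053 for Hb+NTR1. A library with 0 counts for a gene could have held up to 3, or 0.178 to 0.224 CPM (counts scaled to library size), which covers counting error only. Levels are normalised CPM with SD over 3 libraries, and differences are log2 fold changes ± SE with the adjusted p of edgeR's quasi-likelihood test over 13810 genes, called under 0.05. Hb replicate 2 stood apart from its group, its chi-square per degree of freedom being 13.4 with one and 11.1 with the other Hb library, where the remaining pairs within groups gave 2.53 to 5.22. Mitochondrial transcripts made up 4.73% to 5.20% of counts in control libraries, 4.14% to 4.57% in Hb and 6.19% to 6.65% in Hb+NTR1. The label of a neuronal line went against most neuronal markers, since 11 of 16 had a mean under 1 CPM in each group. Of these, Map2, Snap25 and Gad1 had 0 counts in all 9 libraries. The others, Dlg4, Ncam1, Tubb3, Syn1 and Eno2, had control means of 70.2, 68.3, 32.6, 24.7 and 11.2 CPM. The summed level of the 16 markers was 205 to 211 CPM for control, 200.1 to 217 CPM for Hb and 139 to 143 CPM for Hb+NTR1. From Hb to Hb+NTR1, mean Dlg4 went from 70.7 to 32.1 CPM and Tubb3 from 36.8 to 5.26 CPM. The means of Syn1 and Eno2 fell less, and Ncam1 went from 63.5 to 70.3 CPM. In bulk RNA, fewer cells of a type and less RNA per cell cannot be told apart.

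With oxyhemoglobin alone, Slc1a3 was the only one of the 6 tested genes to be called, and it fell. Adding NTR1 brought a far deeper fall of Slc1a3, moderate falls of Slc7a11 and Glud1, a rise of Got1, a borderline fall of Glul and no call for Got2. In Hb against control 1 of the 6 tested genes was called, lower, where 3.65% of all tested genes were called (1.88% higher and 1.77% lower). In Hb+NTR1 against Hb 5 of the 6 were called, 1 higher and 4 lower, where 62.3% of all genes were called (30.7% higher and 31.6% lower). In Hb+NTR1 against control 4 of the 6 were called, 1 higher and 3 lower, where 63.6% of all genes were called (31.4% higher and 32.2% lower). With such a background a call with NTR1 says little about these genes. By size, 0.652% of all tested genes had a larger log2 change than Slc1a3 in Hb+NTR1 against Hb, compared with 27.3% for Got1, 30.4% for Slc7a11, 32.9% for Glud1 and 57.9% for Glul. The median log2 fold change there was -0.49 over the 6 and -0.011 over all genes. The comparisons share libraries, so they are not separate evidence.

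**Figure D1:**
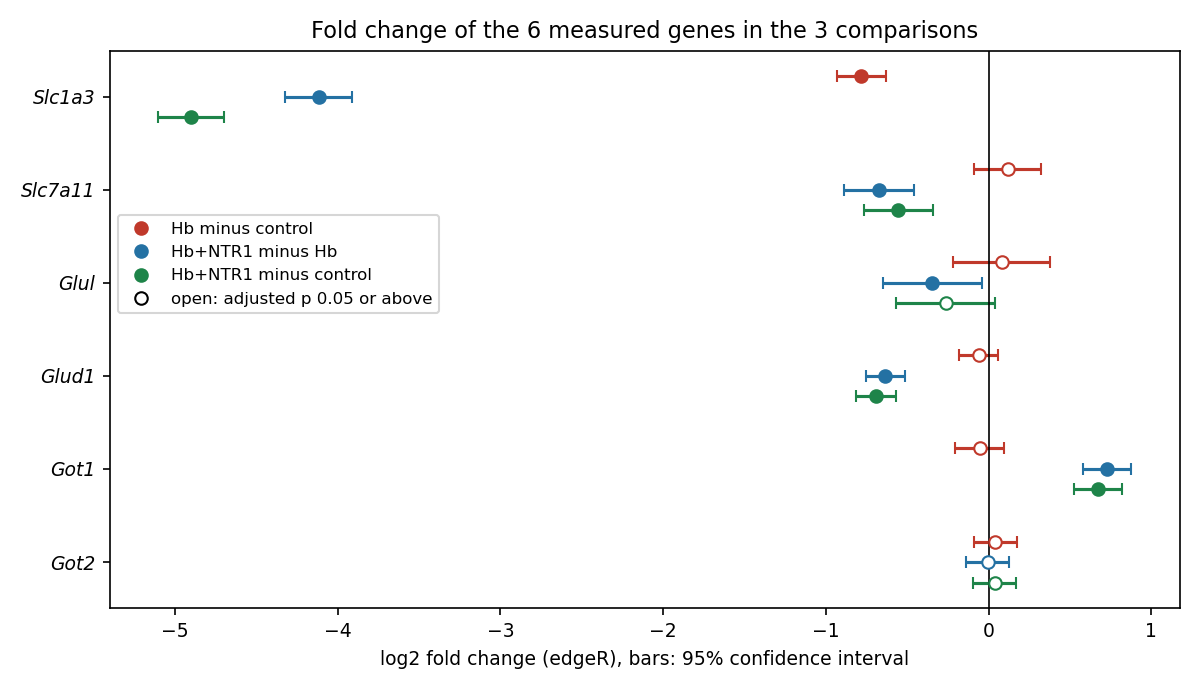
Log2 fold change (horizontal axis) with 95% confidence interval of the 6 tested genes in the 3 comparisons; filled points have an adjusted p under 0.05. Slc1a3 lies at -0.78, -4.12 and -4.90, while the intervals of the other 5 genes in Hb minus control include 0.

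Slc1a3, the glutamate uptake transporter GLAST, was the member that changed most. Its libraries had 227, 199 and 207 CPM in control, 113, 119 and 137 CPM in Hb, and 6.65, 7.59 and 6.96 CPM in Hb+NTR1. The 3 groups did not overlap, with every Hb library below every control library and every Hb+NTR1 library far below both. With oxyhemoglobin alone Slc1a3 fell 1.72-fold (log2 fold change -0.78 ± 0.0732, adjusted p = 2.23e-07). With NTR1 added it fell a further 17.4-fold from Hb (log2 -4.12 ± 0.0989, adjusted p = 3.36e-20) and 29.8-fold from control (log2 -4.90 ± 0.0984, adjusted p = 1.40e-21). Among genes with a negative log2 fold change it ranked 52 of 6996 by size in Hb+NTR1 against Hb and 162 of 6902 in Hb against control. In the authors' deposited table of Hb+NTR1 against control it was the only one of the 8 genes listed, at a log2 fold change of -4.90. That table holds only log2 fold changes over 2 in size and rests on the same counts, so it is not separate evidence.

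Slc1a3 (ENSMUSG00000005360.14) lies on chromosome 15 from 8634124 to 8710764 of GRCm38, minus strand. An unclassified GENCODE entry, Gm37310, lies within it on the same strand and had 114 to 215 counts for control, 54 to 115 for Hb and 1 to 3 for Hb+NTR1. That is at most 7.19% of the Slc1a3 count in any Hb library. Slc1a3, Slc1a2 and Glul are also markers of astrocytes. The other 6 astrocyte markers examined, of which Gja1 and Sox9 made up most, summed to 197 to 200.4 CPM for control, 201 to 210.5 CPM for Hb and 134 to 157 CPM for Hb+NTR1. Aqp4 was at 0 in all libraries and Gfap had means of 0.237 to 0.882 CPM. Of the 10 fibroblast markers, 2 to 3 had a mean under 1 CPM in a group. Col1a2 had the highest mean in control and Hb, and Vim, at 1443 CPM, in Hb+NTR1. The 10 summed to 16864 to 17775 CPM for control, 14182 to 15348 CPM for Hb and 2762 to 2878 CPM for Hb+NTR1. Microglial markers, 5 of 6 under 1 CPM, summed to 18.3 to 25.7, 12.9 to 14.7 and 3.97 to 4.07 CPM in the same order, and oligodendrocyte markers, 6 of 7 under 1 CPM, to 4.08 to 4.65, 2.33 to 2.87 and 1.78 to 2.09 CPM. Their part in the fall of Slc1a3 was not tested.

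The other glutamate uptake genes were close to the limit of detection. Slc1a2, encoding GLT-1, had 3, 5 and 3 counts in control, 5, 10 and 3 in Hb and 6, 11 and 8 in Hb+NTR1. Every Hb+NTR1 library was above every control library, at 0.411 to 0.773 against 0.181 to 0.332 CPM. With no filter on low counts the difference had an adjusted p of 0.203 (log2 1.22 ± 0.704). Slc1a1, encoding EAAC1, the uptake transporter usually named for neurons, had 0, 1 and 0 counts in control, 0, 3 and 0 in Hb and 1, 1 and 0 in Hb+NTR1. No level of Slc1a1 can be told from background at this depth. Slc1a2 (ENSMUSG00000005089.15) lies on chromosome 2 from 102658659 to 102790784 and Slc1a1 (ENSMUSG00000024935.11) on chromosome 19 from 28835049 to 28913960, both on the plus strand.

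**Figure D2:**
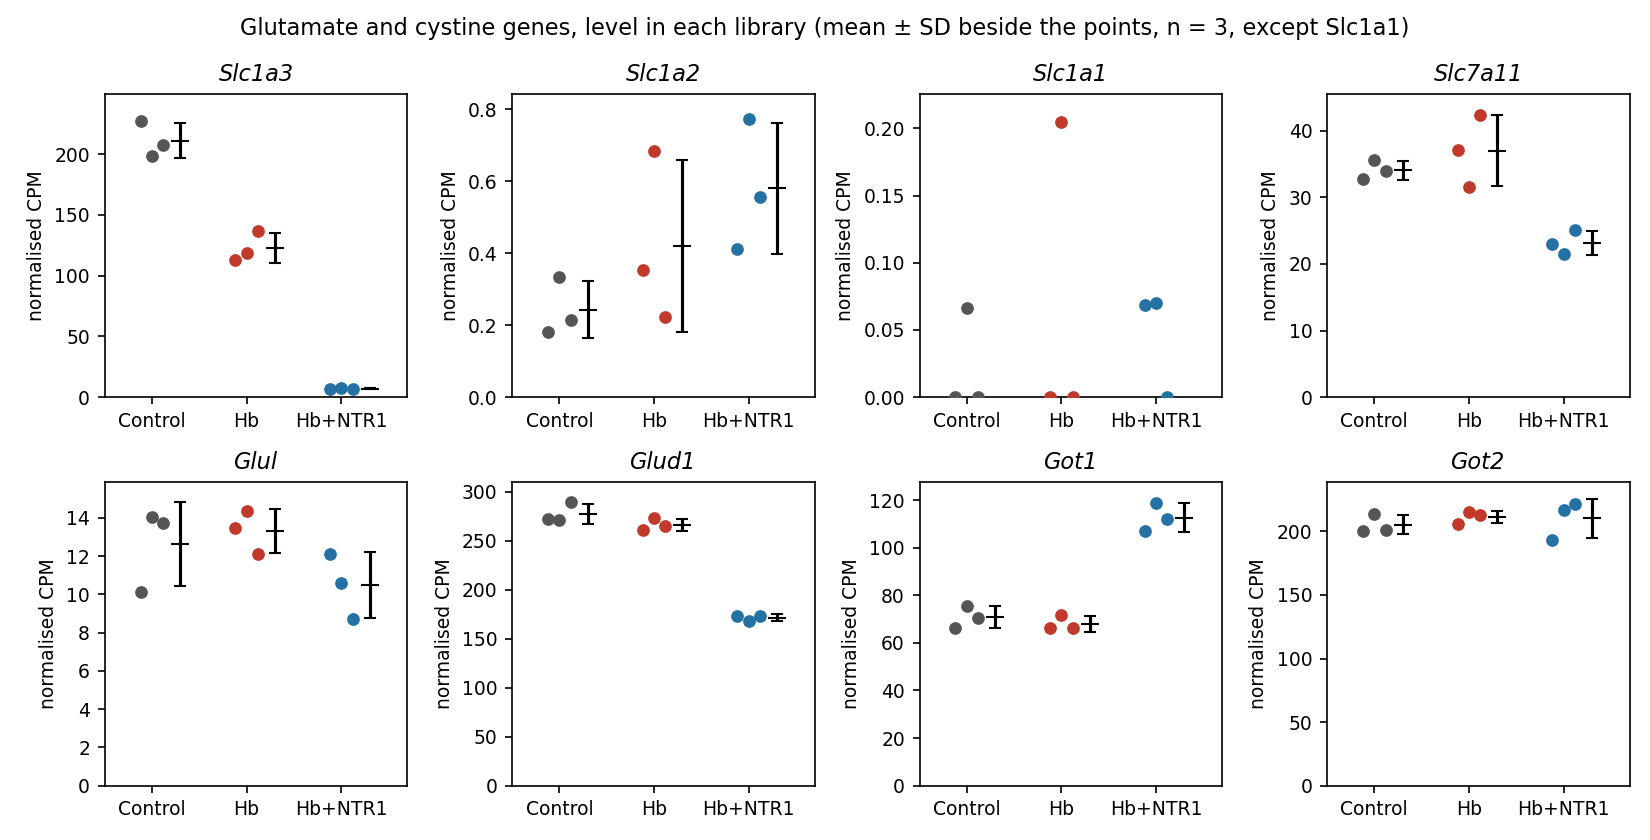
Normalised CPM of the 8 genes (vertical axis, from 0, a scale for each gene) in each of 9 libraries by group, with mean ± SD of 3 libraries beside the points except for Slc1a1. Slc1a3 steps down from 199 to 227 CPM in control to 6.65 to 7.59 in Hb+NTR1, Got1 rises, Slc7a11 and Glud1 fall with Hb+NTR1, and Got2 is level.

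Slc7a11, the cystine-glutamate exchanger, was lower with NTR1 and was not called with oxyhemoglobin alone. Its libraries had 32.8, 35.6 and 33.9 CPM in control, 37.1, 31.6 and 42.3 CPM in Hb, and 23.0, 21.5 and 25.1 CPM in Hb+NTR1. Control lay within the range of Hb, and all Hb+NTR1 libraries lay below all others. It fell 1.59-fold from Hb to Hb+NTR1 (log2 -0.67 ± 0.103, adjusted p = 4.78e-06) and 1.47-fold against control (log2 -0.56 ± 0.103, adjusted p = 5.63e-05). Hb minus control was 0.12 on the log2 scale with a 95% confidence interval of -0.088 to 0.32 and adjusted p = 0.611. The low Hb library was replicate 2, the one that stood apart, and Slc7a11 was not called under any of 17 alternatives in Hb against control (adjusted p 0.155 to 0.976). The gene (ENSMUSG00000027737.10) spans 49892526 to 50443614 on chromosome 3, minus strand.

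The partner chain Slc3a2, which also serves other amino acid exchangers, moved alongside. Slc3a2 had 349.9 ± 11.9 CPM for control, 351 ± 24.6 CPM for Hb and 239 ± 5.56 CPM for Hb+NTR1. It fell from Hb to Hb+NTR1 by 0.56 on the log2 scale (SE 0.0632, adjusted p = 5.59e-08) and was not called in Hb against control (adjusted p = 0.982). The ratio of Slc7a11 to Slc3a2 counts within a library was 0.0955 to 0.0992 for control, 0.0838 to 0.129 for Hb and 0.0876 to 0.106 for Hb+NTR1. These ranges overlap, and the ratio was not tested.

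The tested genes most like Slc7a11 over the 9 libraries, of 10565 with at least 5 CPM in some group, were Nxf3, Rbfox2, C2cd5, Chpf2 and Steap2, with Pearson r of 0.978 to 0.986 on log2 CPM. Chpf2, for example, had 26.7, 27.9 and 17.3 CPM in control, Hb and Hb+NTR1. The most opposite were Agtrap, Trappc1, Chmp1a, Vamp4 and Cry2, with r from -0.983 to -0.978. These values describe libraries that fall into separate groups, so they largely reflect 3 group means, and no p is given.

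Glud1, which feeds glutamate carbon into the citric acid cycle, fell with NTR1. Its libraries had 272, 272 and 289 CPM in control, 261, 273 and 265 CPM in Hb, and 173, 168 and 174 CPM in Hb+NTR1. Control and Hb overlapped and Hb+NTR1 lay below both. Glud1 fell 1.55-fold from Hb (log2 -0.63 ± 0.0592, adjusted p = 2.18e-09) and 1.62-fold from control (log2 -0.69 ± 0.0592, adjusted p = 4.15e-10). In Hb against control the interval was -0.18 to 0.061 on the log2 scale (adjusted p = 0.667). The processed pseudogene Glud-ps had at most 0.553% of the Glud1 count in any library. Glud1 (ENSMUSG00000021794.16) lies on chromosome 14 from 34310727 to 34345265, plus strand.

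Got1, the cytosolic aspartate aminotransferase, was the only one of the 6 tested genes to rise. Its libraries had 66.2, 75.5 and 70.4 CPM in control, 66.1, 71.7 and 66.2 CPM in Hb, and 107, 119 and 112 CPM in Hb+NTR1. Every Hb+NTR1 library lay above all 6 others, while control and Hb overlapped. Got1 rose 1.66-fold from Hb (log2 0.73 ± 0.0716, adjusted p = 5.06e-09) and 1.59-fold from control (log2 0.67 ± 0.0712, adjusted p = 1.57e-08). In Hb against control the log2 interval was -0.21 to 0.095 (adjusted p = 0.769). Got1 (ENSMUSG00000025190.13) lies on chromosome 19 from 43499752 to 43524605, minus strand.

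Got2, its mitochondrial counterpart, was not called in any comparison. Its libraries had 200.1, 214 and 202 CPM in control, 206, 215 and 213 CPM in Hb, and 193, 217 and 222 CPM in Hb+NTR1. The 3 groups overlapped. Hb+NTR1 minus Hb was -0.0047 on the log2 scale with an interval of -0.14 to 0.13 (adjusted p = 0.955), a sign that other scalings turned. The ratio of Got1 to Got2 counts within a library, which needs no scaling, was 0.331 to 0.353 for control, 0.311 to 0.334 for Hb and 0.506 to 0.555 for Hb+NTR1. All Hb+NTR1 ratios lay above all others. Got2 (ENSMUSG00000031672.8) lies on chromosome 8 from 95864134 to 95888547, minus strand.

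Glul, glutamine synthetase, gave the least certain call. Its libraries had 10.1, 14.0 and 13.7 CPM in control, 13.5, 14.4 and 12.1 CPM in Hb, and 12.1, 10.6 and 8.70 CPM in Hb+NTR1. The highest Hb+NTR1 library, at 12.13 CPM, lay just above the lowest Hb library, at 12.09 CPM, and control overlapped both groups. Counts were 125 to 211 in a library. Glul fell 1.27-fold from Hb to Hb+NTR1 with adjusted p = 0.0454 (log2 -0.35 ± 0.148), and was not called against control (log2 -0.26 ± 0.147, adjusted p = 0.123). The call against Hb ended by DESeq2 (adjusted p = 0.0643), with library totals alone (0.0658), and without Hb replicate 1 (0.0820), Hb replicate 2 (0.110), Hb+NTR1 replicate 2 (0.0850) or Hb+NTR1 replicate 3 (0.238), over a range of 0.0210 to 0.238 in 17 alternatives. Against control it passed only without control replicate 1 (adjusted p = 0.0227, range 0.0227 to 0.452). Glul (ENSMUSG00000026473.15) lies on chromosome 1 from 153899944 to 153909723, plus strand.

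Levels per kilobase of exon, which allow genes to be ranked, changed order with NTR1. In control the order was Glud1 at 66.0 ± 2.38, Got2 at 42.5 ± 1.57, Got1 at 27.8 ± 1.82, Slc1a3 at 24.7 ± 1.70, Glul at 3.80 ± 0.657 and Slc7a11 at 2.45 ± 0.102 CPM per kb (SD, n = 3). Got1 and Slc1a3 overlapped there, and the other neighbours did not. Slc1a2 at 0.0185 and Slc1a1 at 0.00268 CPM per kb came last. In Hb the order was the same, and Slc1a3 at 14.4 ± 1.44 no longer overlapped Got1 at 26.8 ± 1.26 CPM per kb. In Hb+NTR1 Got1 at 44.4 ± 2.33, Got2 at 43.6 ± 3.19 and Glud1 at 40.8 ± 0.771 CPM per kb overlapped with their neighbours, and Slc1a3 at 0.828 ± 0.0559 stood below Slc7a11 at 1.66 ± 0.129. Lengths are the union of all annotated exons, so a gene with long unused exons is understated.

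**Figure D3:**
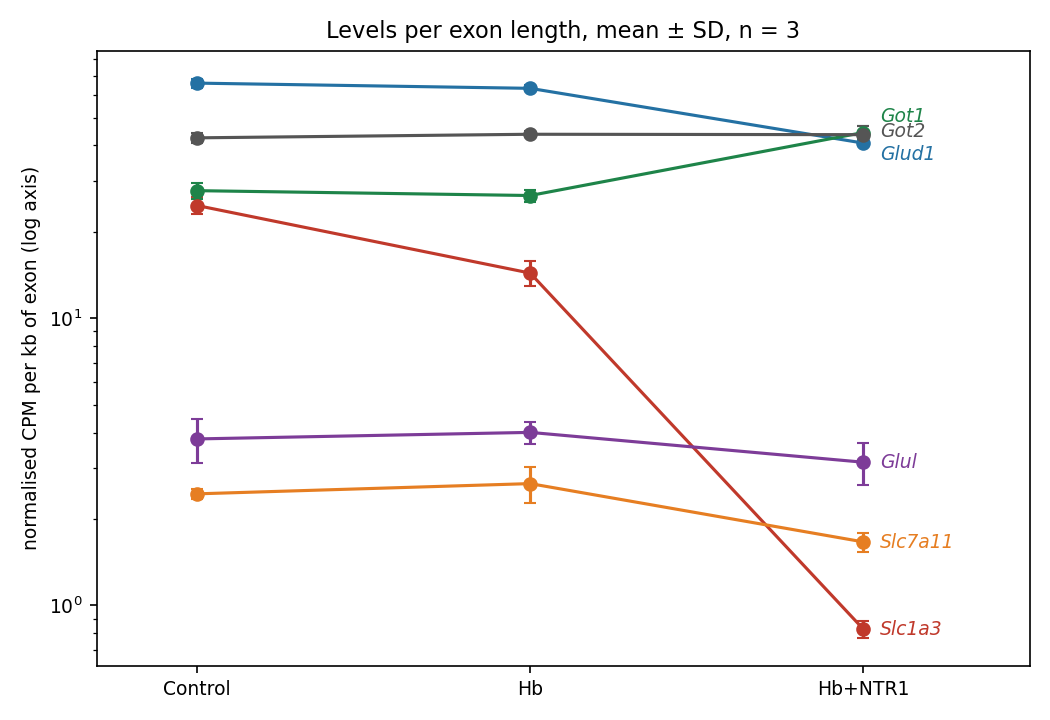
Normalised CPM per kb of exon (vertical log axis), mean ± SD of 3 libraries, of the tested genes in the 3 groups. Slc1a3 crosses from the level of Got1 in control to below Slc7a11 in Hb+NTR1, and Got1, Got2 and Glud1 converge between 40.8 and 44.4.

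Of 21 partners and other carriers of glutamate, glutamine and cystine listed, 12 were tested, and in Hb+NTR1 against Hb 5 were higher, 4 lower and 3 not called, at a median log2 of 0.029. Over all tested genes in that comparison 30.7% were higher and 31.6% lower, at a median of -0.011, so the calls in this and the following lists are given as a description of their genes. Ctns, which exports cystine from lysosomes, rose 2.74-fold from 39.8 ± 3.16 to 109 ± 2.06 CPM (adjusted p = 5.78e-14). Slc17a5, a lysosomal carrier of sialic acid, rose 2.49-fold from 21.0 ± 0.941 to 52.1 ± 0.711 CPM. Slc38a7, a lysosomal glutamine carrier, rose from 27.6 ± 0.572 to 49.5 ± 3.58 CPM. Slc7a5, a large neutral amino acid exchanger that also pairs with Slc3a2, fell 2.89-fold from 450.04 ± 30.7 to 156 ± 9.12 CPM (adjusted p = 2.26e-15). The glutamine importer Slc1a5, a relative of Slc1a3, fell 1.66-fold from 159.9 ± 10.1 to 96.2 ± 1.33 CPM. Slc7a6, another partner of Slc3a2, fell from 88.2 ± 5.30 to 58.8 ± 1.85 CPM. Other surface carriers did not follow these falls, and they are named after their values were seen. The glutamine carrier Slc38a1 rose from 189 ± 13.2 to 223 ± 10.3 CPM (adjusted p = 0.00245), and Slc1a4 and Slc38a2 were not called (adjusted p = 0.693 and 0.755). Slc7a7, at 3.48 ± 0.513 CPM for Hb and 3.57 ± 0.237 CPM for Hb+NTR1, was not called either (adjusted p = 0.902). It was called higher in Hb+NTR1 than in control, which had 2.14 CPM (adjusted p = 0.00868).

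Of 22 other enzymes that make or use glutamate and glutamine, 18 were tested, 1 higher, 10 lower and 7 not called in Hb+NTR1 against Hb, at a median log2 of -0.39. All genes tested had 62.3% called, 30.7% higher and 31.6% lower, and against control 8 of the 18 were lower and 9 not called. Pycr1, the last step from glutamate to proline, fell 7.36-fold from 35.3 ± 3.46 to 4.79 ± 0.723 CPM (adjusted p = 2.59e-15). Aldh18a1, the first step of the same route, fell 3.10-fold from 248 ± 13.2 to 80.0 ± 3.13 CPM. Gpt2, the mitochondrial alanine transaminase, fell 2.38-fold from 179.7 ± 5.41 to 75.4 ± 3.52 CPM. The single gene that rose was Abat, the transaminase of GABA, at 0.381 and 1.75 CPM. Abat is named after its values were seen. Of 7 genes of mitochondrial carriers and the malate-aspartate shuttle, in which Got1 and Got2 take part, 3 were higher and 1 lower, at a median of 0.052. The aspartate-glutamate carrier Slc25a13 rose from 66.6 ± 1.67 to 94.3 ± 0.771 CPM and cytosolic malate dehydrogenase Mdh1 from 183 ± 12.7 to 239 ± 6.57 CPM. Mitochondrial Mdh2 fell from 406 ± 34.0 to 319 ± 20.4 CPM.

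Of 18 genes of glutathione and cysteine, 14 were tested. In Hb+NTR1 against Hb 6 were higher, 4 lower and 4 not called, at a median log2 of 0.18, beside 62.3% called over all genes. Gclc, the catalytic subunit of the first step of glutathione synthesis, rose 1.95-fold from 102 ± 1.09 to 199.7 ± 3.38 CPM (adjusted p = 9.35e-12). The thioredoxin reductase Txnrd1, which can also reduce cystine, rose 2.56-fold from 319.5 ± 9.11 to 817 ± 44.0 CPM, and the dipeptidase Dpep1 rose 4.13-fold from 9.69 ± 1.10 to 40.0 ± 1.98 CPM. Cth, which makes cysteine from cystathionine, fell 5.74-fold from 59.8 ± 6.25 to 10.4 ± 0.0940 CPM (adjusted p = 1.00e-15). The peptidase Anpep fell from 7.10 ± 2.14 to 2.43 ± 0.788 CPM and the glutathione-degrading Chac1 from 57.5 ± 6.24 to 39.2 ± 3.70 CPM. In Hb against control the same list had 3 higher and 0 lower, Gclm, Gclc and Txnrd1, the only calls in the 6 lists, where 1.88% of all tested genes were higher and 1.77% lower. Gclm, the regulatory partner of Gclc, rose 1.56-fold from 106 ± 11.6 to 165 ± 10.5 CPM (adjusted p = 4.18e-06). Gclc rose from 68.4 ± 5.88 to 102 ± 1.09 CPM (adjusted p = 5.62e-06) and Txnrd1 from 259.8 ± 1.92 to 319.5 ± 9.11 CPM (adjusted p = 0.00459). The other 5 lists had 0 calls by edgeR and by DESeq2 of 53 genes tested, with 4 at an unadjusted p under 0.05.

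Of 11 regulators of Slc7a11 listed, 10 were tested, 5 higher, 4 lower and 1 not called in Hb+NTR1 against Hb, at a median log2 of 0.19, beside 62.3% called over all genes, 30.7% higher and 31.6% lower. Nfe2l2, encoding the antioxidant factor NRF2 that raises Slc7a11, rose 2.60-fold from 60.6 ± 1.42 to 157 ± 4.72 CPM (adjusted p = 1.30e-13). Bach1, a repressor of NRF2 targets, rose from 44.7 ± 0.724 to 71.7 ± 2.65 CPM, and the stress factor Ddit3 from 34.2 ± 4.32 to 49.6 ± 2.86 CPM. Atf4, the factor of the amino acid response element shown in the Slc7a11 promoter, fell 1.45-fold from 615 ± 58.8 to 425 ± 19.8 CPM (adjusted p = 3.22e-07). Trib3, of the same list, fell 2.46-fold from 83.9 ± 11.6 to 34.1 ± 3.31 CPM. Trp53, encoding p53, a repressor of Slc7a11, fell 2.62-fold from 228 ± 20.4 to 87.3 ± 3.89 CPM. RNA of these factors says nothing of their activity. Slc7a11 fell 1.59-fold and Got1, whose promoter also held a match to the element, rose 1.66-fold in Hb+NTR1 against Hb. The part of these factors in the level of Slc7a11 or Got1 was not tested.

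Receptors for glutamate were scarce. Of 26 listed, 20 were not tested, none of them with more than 7 counts in any library, and 6 were tested. The kainate receptor subunit Grik2 had 14.5 ± 0.583 CPM for control, 14.3 ± 1.83 CPM for Hb and 16.4 ± 0.972 CPM for Hb+NTR1, and it was not called in Hb+NTR1 against Hb. The single call in Hb+NTR1 against Hb was Grin2d, an NMDA receptor subunit, at 4.29 ± 0.630 and 2.92 ± 0.877 CPM (adjusted p = 0.0446), whose groups overlapped. That call was not made by DESeq2. Over all tested genes 62.3% were called in the same comparison. The remaining tested receptors, Grin3a, Grin3b, Grik5 and Grid1, had low means, of at most 1.94 CPM in any group. All these receptors are named after their values were seen.

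**Figure D4:**
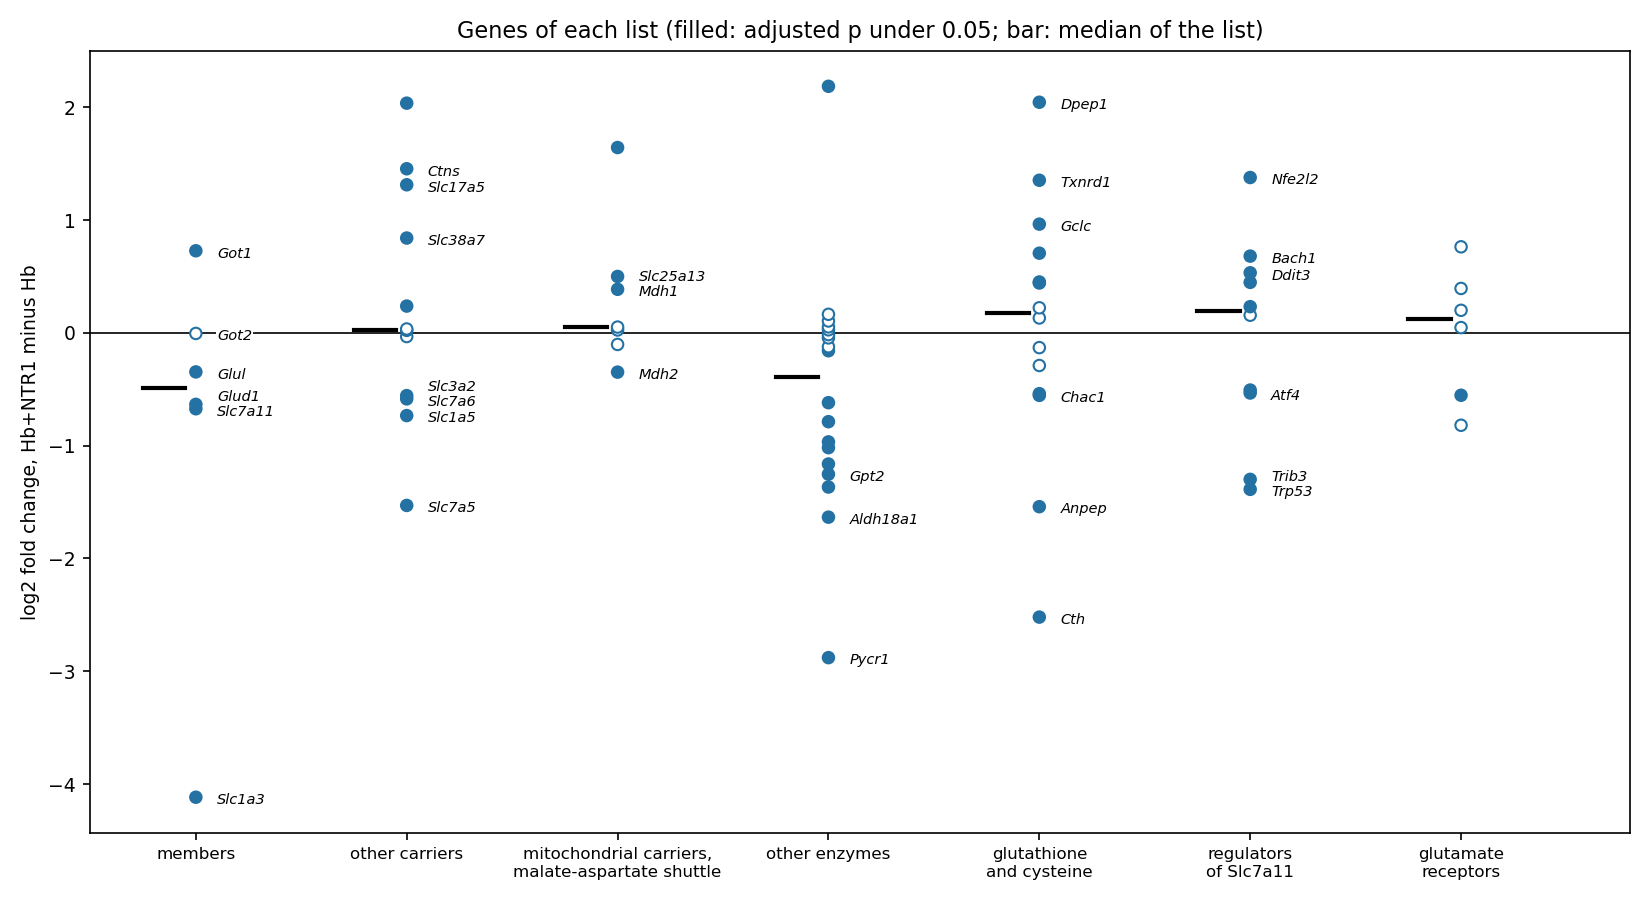
Log2 fold change, Hb+NTR1 minus Hb (vertical axis), of each tested gene among the 8 and in 6 related lists; filled points have an adjusted p under 0.05 and bars are list medians. Slc1a3 at -4.12 lies lowest of all genes drawn, Pycr1 at -2.88 and Cth at -2.52 follow, and Ctns, Txnrd1 and Nfe2l2 lie at 1.35 to 1.46.

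In Hb+NTR1 against control, where 31.4% of all genes were higher and 32.2% lower, the lists had 6 higher and 4 lower of 12 other carriers, 1 and 8 of 18 enzymes, 3 and 1 of 7 mitochondrial genes, 6 and 4 of 14 glutathione and cysteine genes, 5 and 4 of 10 regulators and 1 and 1 of 6 receptors. Gclc was 2.92-fold and Txnrd1 3.14-fold above control, Pycr1 8.03-fold and Cth 5.80-fold below. Mpst, which moves sulfur from a product of cysteine, fell from 49.7 ± 2.56 to 32.0 ± 1.54 CPM against control (adjusted p = 5.62e-07). None of the calls on genes named from these lists by the naming rule ended under any of the 17 alternatives.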

How the data were processed

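Per the labels, poly(A) RNA was prepared with NEBNext kits. Per the submitters' processing notes, HTSeq 0.10.0, HISAT2 2.1.0, bcl2fastq 2.19.1.403 and build GRCm38 were used. Annotation release, strand setting and handling of multi-mapped reads were not stated, and overlapping genes and genes with near-identical copies are therefore uncertain. The authors deposited raw counts for 54232 entries, of which 98 exact repeats were removed, and a table of Hb+NTR1 against control. That deposited table holds the authors' log2 fold change, p-value and adjusted p-value, by a test that is not named. Its 691 rows have counts equal to the count table, and its log2 fold changes exceed 2 in size. Columns beginning in N were taken as Hb+NTR1 because that table holds only N and C columns.

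Counts were analysed with R 4.3.3 and edgeR 4.0.16. Genes passed filterByExpr at a minimum count of 10, libraries were scaled by TMM, and 1 robust quasi-likelihood fit of all 9 libraries with a term for group gave the 3 two-sided comparisons, with Benjamini-Hochberg adjustment. The SE is the log2 fold change over the square root of F. The fit was also run on simulated data in which only a small share of genes was changed. That simulation does not test the scaling where most genes are called, as with NTR1. Positions and exon lengths came from GENCODE M21, and promoters from RefSeq, in which all 8 genes were found by symbol. Bases after the RefSeq start were found in a GENCODE transcript of each gene except Slc1a2 and Slc1a3. DESeq2 1.42.0, other scalings and filters, the 6 libraries compared, a replicate block, removal of mitochondrial genes and each library left out were alternatives. The members and lists were chosen with earlier results of these data known. Genes named from a list were, per comparison, up to 3 called rises and 3 called falls of the largest size whose higher mean reached 5 CPM, besides Slc3a2 and the 5 genes most like and most unlike Slc7a11.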

Additional observations from a re-analysis of the deposited data

How the results depend on the processing

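Of 306 values of the 6 tested genes over 17 alternatives, 291 kept their direction and their side of the threshold. Every call of Slc1a3, Slc7a11, Glud1 and Got1 held, with Slc1a3 at -4.18 to -4.03 on the log2 scale in Hb+NTR1 against Hb and -0.87 to -0.73 in Hb against control. The other 15 values concern Glul and Got2, whose cause was not tested. Got2 in Hb+NTR1 against Hb turned to 0.0023 with DESeq2 size factors and by DESeq2 and to 0.019 with library totals alone, and ranged from -0.041 to 0.058 with 1 library left out. Against control it ranged from -0.00092 to 0.099 with 1 library left out. Glul in Hb against control ranged from -0.062 to 0.16 with 1 library left out. Genes called in Hb against control ranged from 285 to 1125 with 1 library left out, lowest without control replicate 2 and highest without Hb replicate 2. They were 315 and 286 without control replicates 1 and 3. With library totals alone 377 were higher and 196 lower, where TMM gave 259 and 245. Called glutamate receptors in Hb+NTR1 against Hb numbered 0 with library totals alone and by DESeq2, 2 with no filter, and 0 to 1 with 1 library left out. Against control they numbered 1 to 3 with 1 library left out. In Hb against control, calls ranged from 0 to 2 among other enzymes and from 0 to 1 among regulators, both highest without Hb replicate 2. With the replicate number as a block 645, 8706 and 8898 genes were called in Hb against control, Hb+NTR1 against Hb and Hb+NTR1 against control, and no call of the 8 genes changed. Same-numbered libraries had correlations of deviations from -0.049 to 0.095, where differently numbered ones had -0.12 to 0.14. Of the 9 libraries, 3 correlated best with their own number. Whether same-numbered libraries shared a culture or batch is not stated, and these correlations cannot decide it. Depth limits Slc1a1 and Slc1a2, with at most 3 and 11 counts in a library.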

Other observations

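In the authors' deposited table of Hb+NTR1 against control, 5 other genes of the lists appear beside Slc1a3. Pycr1 and Cth are listed as lower, at log2 fold changes of -3.01 and -2.54 in the authors' deposited table. Slc17a7, the vesicular glutamate transporter of excitatory neurons, is listed there as higher, at 2.69. Its level was low, with 3, 1 and 3 counts in control libraries, 3, 0 and 3 counts in Hb libraries and 19, 17 and 7 counts in Hb+NTR1 libraries. The mitochondrial glutamate carrier Slc25a18 and Slc3a1, the heavy chain of a cystine carrier of kidney, are listed in the authors' deposited table as higher, at 2.40 and 2.09, and both stayed under 2 CPM on average in every group.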
